A study of Mus musculus with 4 samples.

Results

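The genes described here are 34 known transcriptional targets of the tumour suppressor p53, taken by symbol from a list that covers cell cycle arrest, cell death and survival, DNA repair, metabolism and the stress response. Of the 34 genes, 33 were among the 15768 genes of the deposited gene table and 32 of the 12222 genes with enough reads to test. Gdf15 was not analysed here, and Eda2r, a receptor of the tumour necrosis factor receptor family, had 9 or 10 counts in each library and was below the filter. The samples were JoMa1.3 cells, a mouse neural crest progenitor line of wild-type genotype. Control cultures received a non-targeting siRNA pool and treated cultures a pool against Stk11, the gene for the kinase LKB1, each at 60 nM, and RNA was taken after 72 h. Each group held 2 libraries, 1 from each of 2 labelled batches, and the labels name 2 transfection reagents without tying a sample to either. All values are from a single cell line, and beyond the batch nothing in the labels tells whether the 2 cultures of a group were independent.

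p53 is a transcription factor that is held low by the ubiquitin ligase MDM2 and is stabilised and modified after DNA damage and other stresses. It binds a pair of decamer motifs in or near its target genes, and the targets stop the cell cycle, trigger apoptosis, repair DNA or adjust metabolism. Cells of the neural crest are known to be sensitive to raised p53 activity during development. Because p53 is controlled largely at the protein level, the level of its mRNA and the activity of its targets are separate measurements. In bulk RNA, fewer cells that express a gene and less RNA of that gene per cell cannot be told apart.

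Stk11 was at 52.7 and 52.1 FPKM (fragments normalised to transcript length and library size) with control siRNA and at 36.3 and 36.9 FPKM with Lkb1 siRNA, so both treated libraries lay below both controls. Libraries held between 17426719 and 19324675 counts. Of 12 neural crest markers, 10 were in the table and 9 of them were at 1 FPKM or more in all 4 libraries, with a summed level of 201 to 203 FPKM in the controls and 198 to 210 FPKM after Lkb1 siRNA. Neither Sox10 nor Foxd3 was analysed here. The smooth muscle markers Acta2 and Tagln were abundant and their list summed to 382 to 408 FPKM in the controls and 307 to 327 FPKM after Lkb1 siRNA, while Cnn1 and Myh11 of the same list stayed under 0.1 FPKM. Of 6 neuron markers 2 were in the table, and they summed to 7.71 to 7.75 FPKM in the controls and 8.24 to 11.6 FPKM after Lkb1 siRNA, nearly all from Tubb3, with Elavl3 under 0.1 FPKM. The leukocyte markers summed to 1.04 to 1.07 FPKM in the controls and 1.26 to 1.59 FPKM after Lkb1 siRNA, and the endothelial markers to 0.19 to 0.24 and 0.22 to 0.39 FPKM. The part of these differences in the results for p53 targets was not tested.

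Trp53, the gene for p53 itself, is not one of the 34 and is given here as the reference for their levels. Trp53 (gene ID 22059) was at 20.25 and 20.29 FPKM in the controls and at 34.86 and 34.29 FPKM after Lkb1 siRNA. The treated libraries were both far above the controls and the 2 libraries of each group lay close together. Trp53 rose by a log2 fold change of 0.74 (95% confidence interval 0.56 to 0.91, edgeR's quasi-likelihood test, adjusted p = 0.026), with differences of 0.74 in batch 1 and 0.73 in batch 2.

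While Trp53 passed the test, no p53 target gene on the list did. None of the 32 tested members passed at an adjusted p under 0.05 in edgeR, where 10 of all 12222 genes (0.0818%) did. DESeq2 called no member and 46 of 12688 genes (0.363%). Limma on log2(FPKM + 1) or log2(FPKM + 0.1) called 0 of all 12222 genes, Trp53 included, so its count says nothing about the members. At an unadjusted p under 0.05, 3 of 32 members (9.38%) differed, namely Phlda3 and Ddb2 with higher means and Perp with a lower mean, against 11.1% of all genes tested. The members' median log2 fold change was 0.012 and the median over all genes tested was 0.00049. Their median absolute log2 fold change was 0.067, against 0.098 for all genes. Means were higher after Lkb1 siRNA for 17 members and lower for 15, and only Perp and Ddb2 differed by more than 0.3 on the log2 scale.

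A missed threshold with 2 libraries a group does not show that a gene stayed the same, so the intervals are the more direct measure. The 95% confidence interval lay within a log2 fold change of 0.5 in either direction for 23 of 32 members and within 0.3 for 15, and it included 0 for 29. Over all 12222 genes tested, 9070 intervals lay within 0.5 and 5159 within 0.3, which are similar shares. For 28 of 32 members the interval ended below 0.56, the lower bound of the interval for Trp53. The 4 whose intervals reached that bound were Ddb2 (upper bound 0.87), Tigar (0.61), Dcxr (0.58) and Trp53inp1 (0.57). These intervals are from the fit that ignores batch. With batch as a replicate block, described below, the lower bound of Trp53 was 0.599. The upper bounds were then 0.68 for Ddb2, 0.54 for Tigar, 0.43 for Dcxr and 0.31 for Trp53inp1. With the block the intervals of Psrc1, Triap1 and Tigar also left out 0. The plot of the log2 fold changes with their intervals from the fit without the block shows their spread, with Perp on its own at the lower end.

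**Figure D1:**
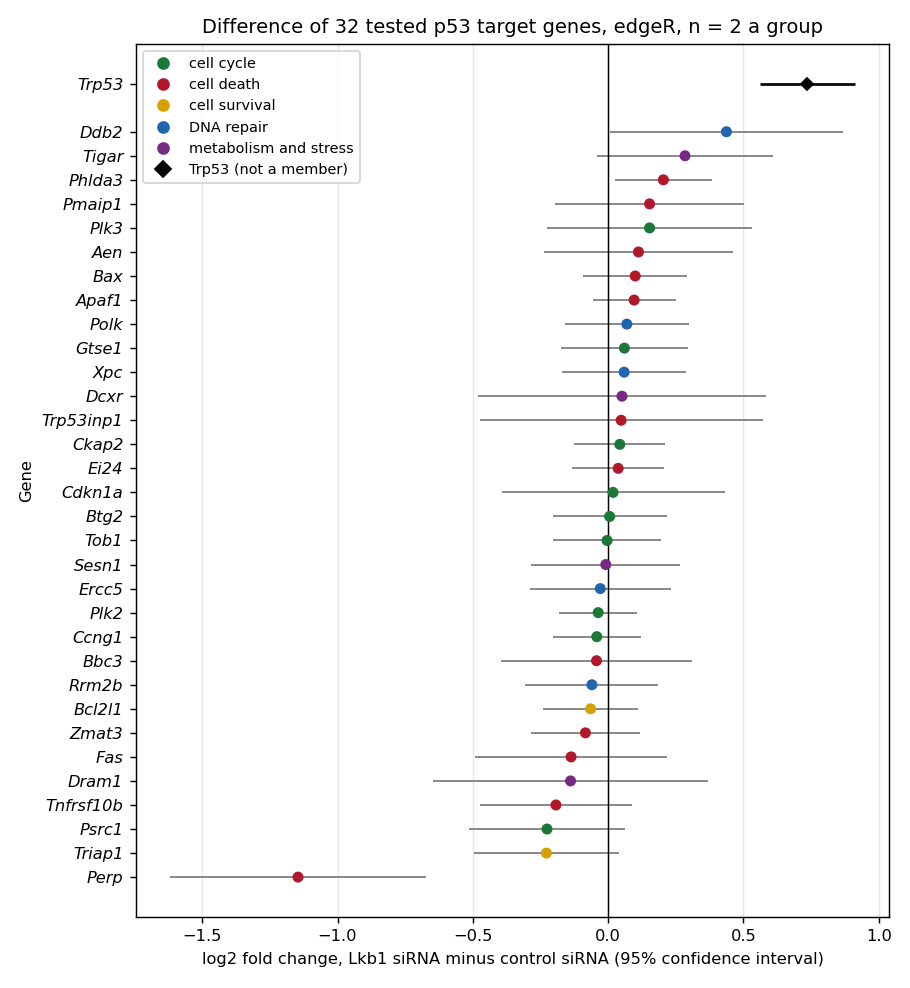
Log2 fold change of the 32 tested p53 target genes and of Trp53, Lkb1 siRNA minus control siRNA, from edgeR with n = 2 libraries a group. Points are estimates coloured by role and bars are 95% confidence intervals; most bars cross 0, Perp lies at -1.15, and Trp53 lies at 0.74.

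The 2 groups of libraries did not overlap for 11 of 32 members (34.4%), 6 higher and 5 lower after Lkb1 siRNA, on normalised counts (CPM). That share was below the 42.7% of all genes tested whose groups did not overlap. Since each batch held 1 library of either group, the batch could also be used as a replicate block. For the members that fit took the spread almost wholly from all genes together, so its p-values do not measure a gene's own spread. With the block, 4 of 32 members (12.5%) passed in edgeR, with Phlda3 and Ddb2 higher and Perp and Psrc1 lower, against 13.6% of all genes (806 higher, 854 lower). The members' share was thus below or near that of all genes under each of these counts.

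The levels of the members spanned 0.12 to 117 FPKM, and 32 of the 33 measured genes were at 1 FPKM or more in every library. In 14 of them every library was above 10 FPKM. The most abundant was Plk2, a polo-like kinase, at 114 to 117 FPKM, followed by Bax at 71.7 to 85.7 FPKM. The plot of levels by library shows that the 4 libraries of a gene lie close together relative to the distances between genes, with Perp the most spread.

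**Figure D2:**
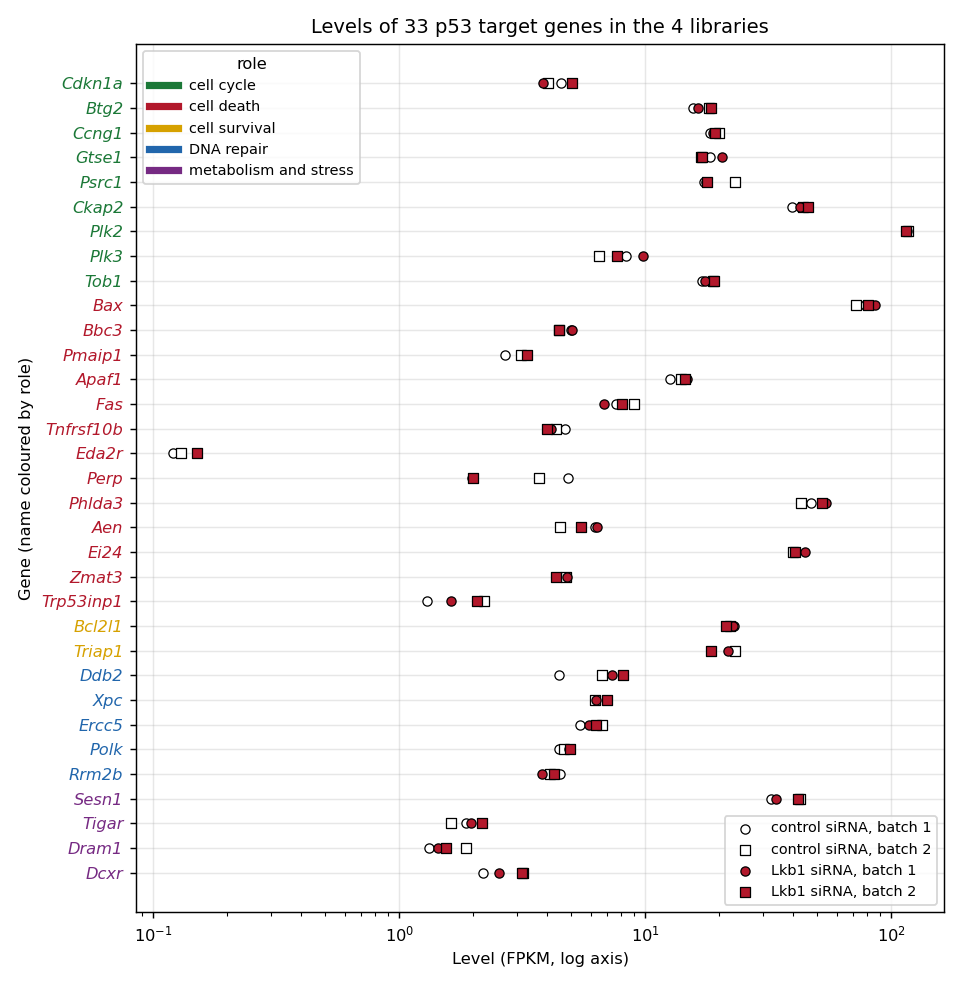
Level in FPKM (log axis) of the 33 measured p53 target genes in each of the 4 libraries, ordered by role; open symbols are control siRNA, filled symbols Lkb1 siRNA, circles batch 1 and squares batch 2. Perp is the gene whose treated libraries (1.97 and 1.99 FPKM) stand farthest below its controls (4.85 and 3.69 FPKM).

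Promoter sequence was compared with these levels because the list is defined by a transcription factor. RefSeq windows of 300 bases (250 before to 50 after a start site, build GRCm38.p6) were held for 25 of the 33 genes, as 35 windows. The p53 decamer motif was searched as RRRCWWGYYY (R for A or G, W for A or T, Y for C or T), which reads the same on both strands. An exact match was found in at least 1 window of 9 genes (36%). The share was 8.62% for the genes of the deposited table and 9.55% for all genes with windows. The 9 genes were Aen, Bax, Ccng1, Cdkn1a, Ckap2, Ei24, Gtse1, Polk and Sesn1. The following stretches show 1 match each, in capitals, in 4 of them, read 5′ to 3′ on the gene's strand, as examples from the arrest, death and metabolism roles.
Cdkn1a, chr17:29090903-29090962, plus strand: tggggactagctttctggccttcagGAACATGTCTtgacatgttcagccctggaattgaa
Ccng1, chr11:40755437-40755496, minus strand: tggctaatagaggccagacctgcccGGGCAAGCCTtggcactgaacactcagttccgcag
Bax, chr7:45467065-45467124, minus strand: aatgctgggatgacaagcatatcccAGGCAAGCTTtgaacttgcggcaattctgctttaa
Sesn1, chr10:41887241-41887300, plus strand: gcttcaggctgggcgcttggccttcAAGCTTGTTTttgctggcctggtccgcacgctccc

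The Cdkn1a window held the motif at 2 places, at positions -73 and -51 from 1 of its start sites, and the same places lie 2863 and 2841 bases before its other start. The capitals in its stretch mark the match at -51, and the match at -73, GGACTAGCTT, stands in lower case before it. These matches are 12 bases apart, and whether they act as a pair was not tested. The bases directly after the match at -51, tgacatgttc, differ from the motif in their first base only and were not counted. Windows with 2 or more matches were 2.86% of the members' windows and 0.281% of those for genes of the deposited table. Relative to the start, the motif began at position -201 in Bax, -185 in Ccng1 and -173 in Sesn1. The 9 genes with the motif had log2 fold changes between -0.042 and 0.11 (median 0.043), 7 above 0 and 2 below. The 15 tested genes whose windows lacked it ran from -0.23 to 0.28 (median -0.029), 6 above 0 and 9 below. Both groups of genes were therefore spread around 0, and the difference between them was noticed in these data and not tested. A match to the letters is no evidence of binding, and p53 often binds outside windows of this length. The cell cycle homology region, TTTGAA or TTCGAA on either strand, through which p53 lowers cell cycle genes by way of the DREAM complex, was in windows of 6 members (24%) against 17.2% of the genes of the table and 21.7% of all genes with windows.

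Among the 9 cell cycle members, the best known is Cdkn1a (gene ID 12575), which encodes the cyclin-dependent kinase inhibitor p21 and whose promoter stretch is shown above. Cdkn1a was at 4.55 and 4.02 FPKM in the controls and at 3.84 and 5.05 FPKM after Lkb1 siRNA. The treated libraries held both the lowest and the highest value, so the groups overlapped. Its log2 fold change was 0.018 with a 95% confidence interval from -0.39 to 0.43 (edgeR adjusted p = 0.981), and it was -0.29 within batch 1 and 0.30 within batch 2. It rested on 108 to 151 counts a library, and in percent the interval ran from -23.9 to 34.7%.

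Ccng1, which encodes cyclin G1, had a much narrower interval than Cdkn1a. Ccng1 was at 18.3 and 19.9 FPKM in the controls and at 18.8 and 19.2 FPKM after Lkb1 siRNA, both treated libraries lying between the controls. Its interval ran from -13.2 to 8.74%. Plk2 was at 114.3 and 116.6 FPKM against 116.0 and 114.7 FPKM, also with both treated libraries between the controls on this scale, below them in normalised counts, and its interval ran from -11.8 to 7.69%. Btg2 and Tob1, related antiproliferative proteins that act on mRNA deadenylation, had log2 fold changes of 0.0054 and -0.0039, with groups that overlapped and at most 981 counts a library.

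Among the spindle-associated members, Psrc1 was the 1 that passed with the block. Psrc1 (gene ID 56742), a microtubule-associated protein of the spindle, was at 17.3 and 23.2 FPKM in the controls and at 17.7 and 17.8 FPKM after Lkb1 siRNA. Only the batch 2 control stood apart, and on the FPKM scale the groups overlapped, though normalised counts did not. The log2 fold change was -0.23 (SE 0.13, edgeR adjusted p = 0.547) and came from batch 2 (-0.41) with -0.012 in batch 1; without the batch 2 control it was -0.011 and without the batch 1 control -0.41. With the replicate block the edgeR adjusted p was 0.0438, and it was 0.0891 when a per-library trend on gene length was also removed.

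Ckap2, another spindle protein, was at 39.6 and 43.8 FPKM against 42.4 and 46.0 FPKM, with the higher value of each group in batch 2. Gtse1, a microtubule-binding protein that can restrain p53, was at 18.3 and 16.9 FPKM against 20.6 and 17.1 FPKM, with the lower value of each group in batch 2. The log2 fold changes were 0.043 for Ckap2 and 0.06 for Gtse1, and the groups overlapped for both. Plk3, a stress-responsive polo-like kinase, was at 8.33 and 6.48 FPKM against 9.79 and 7.68 FPKM. Within each batch Plk3 was higher after Lkb1 siRNA by nearly the same log2 difference, 0.15 and 0.16, but the groups overlapped across batches (edgeR adjusted p = 0.777 without the block and 0.343 with it). Of the 9 cell cycle members, 5 means were higher and 4 lower, with a median log2 fold change of 0.0054.

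The cell death members held the 1 gene that stood apart. Perp (gene ID 64058) encodes a tetraspan membrane protein of desmosomes that also takes part in p53-dependent apoptosis. Perp was at 4.85 and 3.69 FPKM in the controls and at 1.97 and 1.99 FPKM after Lkb1 siRNA, from 146 and 115 counts against 55 and 59 counts. The treated libraries were nearly identical and both lay well below either control, and the controls themselves differed. Normalised counts were 6.97 ± 1.42 CPM in the controls and 3.14 ± 0.0108 CPM after Lkb1 siRNA (SD, n = 2 each), a difference of -54.8% (95% confidence interval -67.4 to -37.3%).

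For Perp the log2 fold change was -1.15 (SE 0.21), -1.32 within batch 1 and -0.90 within batch 2. Without the block the edgeR adjusted p was 0.106 and the DESeq2 adjusted p was 0.0877, both over the threshold. With the replicate block Perp fell, with an edgeR adjusted p of 3.28e-08. With any 1 library left out, the log2 fold change of Perp lay between -1.34 and -0.92. Perp also passed in edgeR without the block when all genes of at least 1 count were in the fit (adjusted p = 0.0326), where 0.286% of all genes passed. Of 3 epithelial markers 2 were in the table. They summed to 0.16 to 0.17 FPKM in the controls and 0.03 to 0.13 FPKM after Lkb1 siRNA. Epcam was at 0.12 and 0.15 FPKM in the controls and at 0.1 and 0 FPKM after Lkb1 siRNA, and Cdh1 was under 0.1 FPKM in every library. The part of epithelial cells in the Perp difference was not tested.

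Phlda3 (gene ID 27280), which encodes a repressor of AKT signalling, was on the other side of 0. Phlda3 was at 47.1 and 43.1 FPKM in the controls and at 54.5 and 52.3 FPKM after Lkb1 siRNA, so both treated libraries were above both controls. The log2 fold change was 0.20 (SE 0.0796, 95% confidence interval 0.024 to 0.38), 0.16 in batch 1 and 0.25 in batch 2. The edgeR adjusted p was 0.388, and 0.0113 with the replicate block. Without the batch 2 control the log2 fold change was 0.13.

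The core mitochondrial apoptosis genes showed small differences. Bax, which forms pores in the outer mitochondrial membrane, was at 78.5 and 71.7 FPKM against 85.7 and 80.7 FPKM. Both treated values were higher on this scale, but the normalised counts overlapped (log2 fold change 0.10, interval -6.19 to 22.4%). Pmaip1, the BH3-only protein NOXA, was at 2.69 and 3.11 FPKM against 3.29 and 3.32 FPKM with no overlap (log2 fold change 0.15, edgeR adjusted p = 0.758). Bbc3, the BH3-only protein PUMA, was at 5.0 and 4.47 FPKM against 5.04 and 4.45 FPKM, with the lower value of each group in batch 2 (log2 fold change -0.043). Apaf1, the scaffold of the apoptosome, was at 12.6 and 13.9 FPKM against 14.8 and 14.5 FPKM with no overlap (log2 fold change 0.096, edgeR adjusted p = 0.632).

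The death receptors had lower means and did not pass. Tnfrsf10b, a receptor for the ligand TRAIL, was at 4.71 and 4.35 FPKM against 4.14 and 3.97 FPKM, below both controls in both treated libraries (log2 fold change -0.19, edgeR adjusted p = 0.596). Fas, the receptor for FAS ligand, was at 7.58 and 8.96 FPKM against 6.79 and 8.02 FPKM. Within each batch Fas was lower after Lkb1 siRNA, with log2 differences of -0.14 and -0.14, and across batches the groups overlapped (edgeR adjusted p = 0.788). With any 1 of the 4 libraries left out, its log2 fold change lay between -0.27 (without the batch 2 Lkb1 siRNA library) and -0.0074 (without the batch 2 control). Eda2r stayed at 0.12 to 0.15 FPKM in all 4 libraries.

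Of the other death genes, Ei24, a membrane protein of the endoplasmic reticulum, and Zmat3, a zinc finger protein that binds RNA, had log2 fold changes of 0.037 and -0.084. Aen, an apoptosis-enhancing nuclease, was at 6.23 and 4.50 FPKM against 6.37 and 5.50 FPKM, with the batch 2 control the lowest. Trp53inp1, a stress protein that supports autophagy, was at 1.29 and 2.2 FPKM against 1.63 and 2.07 FPKM. Its groups overlapped, and its interval was among the widest, from -28 to 48.5%. Over the 12 tested death members, 7 means were higher and 5 lower, and the median log2 fold change was 0.043.

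Both survival members had lower means. Triap1, a mitochondrial protein that restrains apoptosis, was at 22.6 and 23.1 FPKM in the controls and at 21.7 and 18.6 FPKM after Lkb1 siRNA. The groups did not overlap, and most of the difference was in batch 2 (-0.34 against -0.12 on the log2 scale in batch 1), with a log2 fold change of -0.23 (edgeR adjusted p = 0.511 without the block and 0.106 with it). Bcl2l1, the gene for BCL-XL, was at 23.0 and 22.1 FPKM against 22.8 and 21.4 FPKM, and its interval ran from -15.5 to 8.09%.

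Among the 5 DNA repair members, Ddb2 (gene ID 107986) had the largest positive difference of the 32. Ddb2 encodes the subunit that recognises ultraviolet damage in chromatin. It was at 4.44 and 6.70 FPKM in the controls and at 7.32 and 8.14 FPKM after Lkb1 siRNA. The batch 1 control was the lowest library by a wide margin, and both treated libraries were above both controls. In normalised counts that separation was narrow, with 10.6 CPM in the batch 2 control and 11 CPM in the batch 1 Lkb1 siRNA library. The log2 fold change was 0.44 (SE 0.19, interval 0.47 to 82.5%), 0.64 in batch 1 and 0.28 in batch 2.

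Ddb2 was the 1 member that passed for both terms of the fit with a block. Its edgeR adjusted p for the siRNA was 0.439 without and 0.00512 with the replicate block, and for the batch term it was 0.0204. The value shifted with the control left out: without the batch 2 control the log2 fold change was 0.76, and without the batch 1 control it was 0.18. Leaving out a control also leaves the siRNA groups unbalanced for batch, and Ddb2 was higher in batch 2 by a log2 fold change of 0.38. The parts of the control library and of the batch in these shifts cannot be told apart. In the RefSeq table Ddb2 overlaps Acp2, a lysosomal phosphatase gene at 11.0 and 12.9 FPKM against 12.0 and 13.7 FPKM (log2 fold change 0.064). Whether the counting used strand is not given, so reads in the shared stretch are uncertain. Apaf1 overlaps Ikbip, Dram1 overlaps Washc3, Plk3 overlaps Tctex1d4 and Bcl2l1 overlaps Cox4i2 in the same way.

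The other repair genes lay near 0. Xpc, which recognises damage in nucleotide excision repair, was at 6.25 and 6.24 FPKM against 6.31 and 7.01 FPKM. Ercc5, the excision repair endonuclease XPG, was at 5.41 and 6.70 FPKM against 5.92 and 6.31 FPKM, both treated libraries lying between the controls. Polk, a translesion DNA polymerase, was at 4.47 and 4.68 FPKM against 4.90 and 4.95 FPKM. Rrm2b, a subunit of ribonucleotide reductase that supplies nucleotides for repair, was at 4.50 and 4.08 FPKM against 3.81 and 4.24 FPKM. Their log2 fold changes were between -0.06 and 0.069, and on normalised counts only Polk had groups that did not overlap; on the FPKM scale the groups of Xpc did not overlap either.

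In metabolism and stress, Tigar, a bisphosphatase that slows glycolysis, had the next largest positive difference after Ddb2. Tigar was at 1.86 and 1.62 FPKM in the controls and at 1.96 and 2.17 FPKM after Lkb1 siRNA, without overlap. The log2 fold change was 0.28 (SE 0.14, interval -2.77 to 52.4%, edgeR adjusted p = 0.503 without the block and 0.13 with it), 0.14 in batch 1 and 0.42 in batch 2. Sesn1, a sestrin that restrains the growth kinase complex mTORC1, was at 32.3 and 42.5 FPKM against 34.2 and 41.6 FPKM. Each Sesn1 value followed its batch and the groups overlapped (log2 fold change -0.0088). Dram1, a lysosomal membrane protein of autophagy, was at 1.32 and 1.87 FPKM against 1.43 and 1.55 FPKM, and Dcxr, a carbonyl reductase, at 2.18 and 3.17 FPKM against 2.55 and 3.16 FPKM. Both had groups that overlapped and fewer than 100 counts in each library, and the interval for Dram1 ran from -36.2 to 29.2%.

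The same 32 genes also varied between the batches. In the fit with both terms, 6 of 32 members (18.8%) differed between batch 2 and batch 1 in edgeR, against 12.9% of all genes tested. Sesn1 (log2 fold change 0.31, adjusted p = 9.42e-07), Trp53inp1 (0.54, adjusted p = 0.00101) and Ddb2 (0.38, adjusted p = 0.0204) were higher in batch 2. Aen (-0.36, adjusted p = 4.83e-04), Plk3 (-0.39, adjusted p = 0.00253) and Gtse1 (-0.21, adjusted p = 0.0219) were lower in batch 2. The members' median absolute log2 difference was 0.114 between batches in this fit and 0.067 with the siRNA in the fit without the block. Over all genes tested these medians were 0.097 and 0.098.

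**Figure D3:**
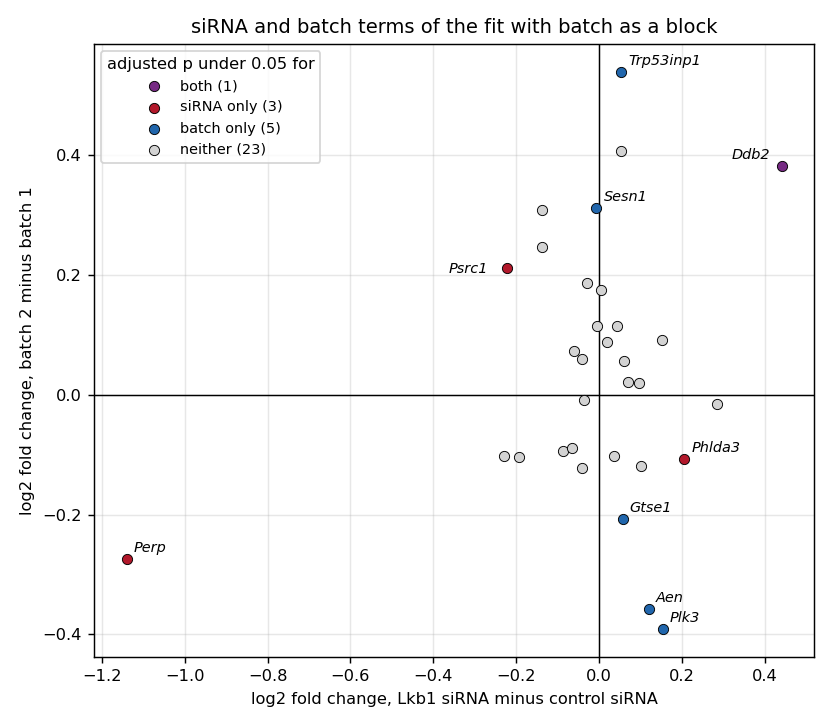
The siRNA term (x axis) against the batch term (y axis) of the edgeR fit with batch as a block, both as log2 fold changes, for the 32 tested p53 target genes. Colours mark an adjusted p under 0.05 for both terms (1 gene, Ddb2), for the siRNA only (3), for batch only (5) or for neither (23, grey).

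Within each batch the Lkb1 siRNA library could be set against its own control. The members' median log2 difference was 0.031 in batch 1 and -0.014 in batch 2. In 10 members the difference was positive in both batches, in 10 it was negative in both, and in 12 the batches had opposite signs. Over all genes tested these counts were 4134, 4083 and 4005. Cdkn1a, Aen, Trp53inp1 and Dram1 were among the 12, as the plot of the differences within each batch shows.

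**Figure D4:**
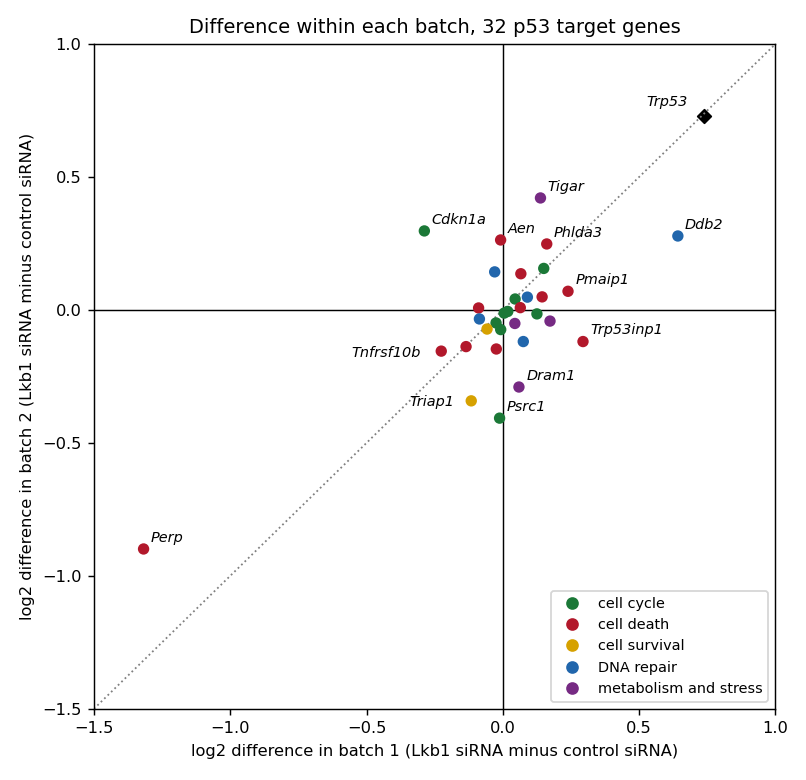
Log2 difference, Lkb1 siRNA minus control siRNA, within batch 1 (x axis) and within batch 2 (y axis) for the 32 tested p53 target genes, coloured by role, with Trp53 as a black diamond and a dotted line where both are equal. Perp is low in both batches (-1.32 and -0.90), Trp53 is at 0.74 and 0.73, and Cdkn1a has opposite signs (-0.29 and 0.30).

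The level of each transcript of the members was tested, while the share of a transcript within its gene was not. It held 88 RefSeq transcripts of the members, of which 61 were tested, and 20 members had more than 1 tested transcript. No transcript of a member passed in edgeR, with or without the replicate block, and neither did any of the 34279 transcripts tested (0%). That count therefore says nothing about the members, and it does not show that their isoforms stayed the same. At an unadjusted p under 0.05 there were 2 of the members' 61 transcripts, against 6.75% of all transcripts tested. One was the single transcript of Perp and the other a predicted transcript of Polk with estimated counts of 0 and 0 in the controls and 15.9 and 20.6 after Lkb1 siRNA (edgeR adjusted p = 0.687 for either). That transcript made up at most 5.67% of the reads of Polk.

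A minor predicted transcript of Ckap2 took 14.0 and 11.2% of the gene's reads in the controls and 9.69 and 7.70% after Lkb1 siRNA, below both controls (edgeR adjusted p = 0.814 for its level). A transcript of Tigar (edgeR adjusted p = 0.988) and the main one of Bcl2l1 (edgeR adjusted p = 0.993) came next in order of p among members with more than 1 tested transcript. For Trp53inp1 the assignment of reads to transcripts was unstable, and 1 of its transcripts had 0, 107.9, 73.4 and 0 estimated counts in control batch 1, control batch 2, Lkb1 siRNA batch 1 and Lkb1 siRNA batch 2. A transcript of Gtse1 likewise had 50.3, 0, 0 and 53.4. These last examples were picked after the values were seen, and the gene totals of Trp53inp1 and Gtse1 do not depend on that assignment.

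Of 23 genes that encode p53 or its regulators, 22 were tested, and Trp53 was the 1 that passed without the block. With the replicate block 5 of 22 (22.7%) passed in edgeR, all higher, against 13.6% of all genes in either direction. Besides Trp53 the smallest p-values belonged to Atm, the kinase that signals DNA breaks to p53, Ep300, an acetyltransferase coactivator, and Mdm4, an inhibitor related to MDM2. Atm was at 3.60 and 3.28 FPKM against 4.27 and 4.67 FPKM (log2 fold change 0.34, edgeR adjusted p = 0.226 without the block and 1.27e-05 with it). Mdm4 was at 12.5 and 14.9 FPKM against 15.7 and 16.6 FPKM (log2 fold change 0.20, edgeR adjusted p = 0.422 without the block and 0.00199 with it) and Ep300 had a log2 fold change of 0.19 (edgeR adjusted p = 0.353 without the block and 0.00219 with it). The treated libraries of Atm and Mdm4 were above both of their controls.

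A pair of regulators outside the rule for named genes were added after their values were seen. Mdm2, the ubiquitin ligase that degrades p53 and is itself a p53 target, was at 21.3 and 23.4 FPKM against 25.3 and 24.3 FPKM. The treated libraries were above the controls, with a log2 fold change of 0.11 (interval -0.055 to 0.28, edgeR adjusted p = 0.604). Cdkn2a, which encodes the MDM2 inhibitor ARF and the kinase inhibitor p16, was at 884 and 933 FPKM against 878 and 879 FPKM, both treated libraries below the controls and all 4 above any of the 33 measured targets. The gene total does not separate ARF from p16.

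A further list of 40 p53 targets, with all 40 tested, had a median log2 fold change of -0.016, with 18 means higher and 22 lower. None passed in edgeR without the block or in DESeq2, 3 (7.5%) had an unadjusted p under 0.05 against 11.1% of all genes, and 3 (7.5%) fell with the replicate block against 13.6% called in either direction. Gadd45a, a growth arrest and DNA damage protein, was at 16.1 and 17.3 FPKM against 12.3 and 12.1 FPKM, both treated libraries well below the controls. Its log2 fold change was -0.49 (edgeR adjusted p = 0.196 without the block and 2.49e-04 with it). Pltp, a phospholipid transfer protein, and Ephx1, an epoxide hydrolase, had log2 fold changes of -0.33 and -0.33 (edgeR adjusted p = 6.40e-05 and 0.02 with the block). Sfn, the cell cycle inhibitor 14-3-3 sigma, was at 0.93 and 0.90 FPKM against 1.35 and 1.35 FPKM (log2 fold change 0.52, edgeR adjusted p = 0.53 without the block and 0.272 with it).

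The 32 cell cycle genes that p53 lowers through p21 and the DREAM complex had a median log2 fold change of 0.0056 and a narrow spread. The interval lay within 0.5 for 31 of them, against 9070 of all 12222 genes tested. None passed without the block in edgeR or in DESeq2, 3 (9.38%) had an unadjusted p under 0.05 against 11.1% of all genes, and with the replicate block 2 rose and 1 fell (9.38%) against 13.6%. Ccne2, the gene for cyclin E2, was at 12.6 and 11.0 FPKM against 17.1 and 15.5 FPKM (log2 fold change 0.42, edgeR adjusted p = 0.196 without the block and 2.71e-07 with it). Cdc25a, a phosphatase that activates cyclin-dependent kinases, had a log2 fold change of 0.23 (edgeR adjusted p = 0.00398 with the block). Plk4, the kinase of centriole duplication, was at 28.8 and 28.7 FPKM against 25.7 and 24.7 FPKM (log2 fold change -0.23, edgeR adjusted p = 7.36e-04 with the block), and Nek2, a centrosomal kinase, had a log2 fold change of -0.14 (0.0842 with the block).

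The genes of the ATF4 and CHOP stress response form a further list, which shares Sesn2 and Atf3 with the further p53 targets. All 13 were tested and had lower means after Lkb1 siRNA, with a median log2 fold change of -0.21. Trib3 and Atf5, a stress-induced transcription factor (log2 fold change -0.62, adjusted p = 0.0378), fell without the block in edgeR, where 0.0818% of all genes passed. With the replicate block 8 of 13 (61.5%) fell, against 13.6% of all genes in either direction, and 4 passed in DESeq2 (Trib3, Atf5, Chac1 and Asns). Trib3, a stress-induced pseudokinase, was at 22.7 and 22.1 FPKM against 11.8 and 9.73 FPKM (log2 fold change -1.095, edgeR adjusted p = 0.026). Chac1, an enzyme that breaks down glutathione, and Ddit3, the gene for CHOP, had log2 fold changes of -0.70 and -0.63 (edgeR adjusted p = 0.0847 and 0.116). These lists were chosen with earlier results of these data known, so their counts are a description and carry no test of their own.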

How the data were processed

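RNA-seq was done on 4 JoMa1.3 libraries, read as pairs of 150 bp per the labels' protocols. The authors' tools were RSEM 1.2.8, Bowtie2 2.2.5 and HISAT2 2.0.4 on build GRCm39, per the submitters' processing notes, which give neither roles nor annotation nor strand setting. The deposited tables hold, per the file headers, a read count and an FPKM per gene or transcript and library. The deposited read counts are expected counts, estimated by the authors before deposit, since 5.73 to 5.97% of them per library had decimals; they were rounded for testing. The deposited FPKM was made by the authors, per transcript length and library size, and is the level printed. In 14 gene cells and 31 transcript cells a doubled decimal point was read as 1 point, after which deposited group means matched within 0.01.

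Genes were tested with edgeR 4.0.16 in R 4.3.3 (robust quasi-likelihood F-test, TMM, expression filter with a minimum count of 10), with Benjamini-Hochberg adjustment over all 12222 genes and a threshold of 0.05. Transcripts were tested the same way, without correction for uncertain assignment. CPM values and overlap of groups use TMM-normalised counts. Standard errors were derived from the F statistic, and intervals are at 95% confidence. DESeq2 1.42.0, limma 3.58.1 on log2(FPKM + 1) and log2(FPKM + 0.1), other filters, library-size scaling, removal of a length trend, the replicate block and leaving out each library were the alternatives. Pairing by batch comes from the labels, and the libraries of a batch deviated together from their group means (correlation 0.259 across genes). P-values measure the spread between these libraries, with information on spread shared across genes. The fit with the replicate block leaves almost no residual degrees of freedom per gene. For the members its spread was taken almost wholly from all genes together. Block p-values therefore do not measure a gene's own spread between replicates.

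The members and lists were chosen with earlier results of these data known, so no list was tested. Named were all members, Stk11, Trp53, the 4 genes of smallest p in each further list and the 4 transcripts of smallest p among members with several. Roles were assigned from general knowledge after the files were read. Sequences are from RefSeq promoter windows of build GRCm38.p6. The fits were also run on simulated data, with set changes larger than that of any tested member but Perp. Those runs therefore do not show how well differences as small as the members' are found.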

Additional observations from a re-analysis of the deposited data

How the results depend on the processing

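Over all genes, 10 differed between the siRNA groups. That count was 3 with library-size scaling, 4 with a mean of at least 5 CPM, 45 with at least 1 count in any library, 46 in DESeq2, 0 in limma with either pseudocount, and 66 to 253 with 1 library left out. With the replicate block it was 1660, and 1538 with the length trend also removed. Members called went from 0 to 1 with the lower filter (Perp), 4 with the replicate block, 3 with the block and the length trend removed, and 1 to 2 with 1 library left out; other settings kept 0. The members' median log2 fold change was 0.044 with library size, where the median of all genes was 0.033, and -0.024 to 0.016 with 1 library left out. The batch count (1462 to 1549 against 1579) stayed within 1.5 times, and no transcript of a member passed in any alternative run; a batch term with 1 library left out has no residual degrees of freedom and was not run.

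No member that passed under any setting changed sign. Signs near 0 turned for Btg2 (-0.00051 with the lower filter, -0.0047 with the length trend removed, -0.0046 with the block too), Tob1 (0.028 with library size, 0.0045 with the length trend removed with or without the block, 0.029 and 0.03 in limma), Bbc3 (0.0022 and 0.0025 in limma), Ercc5 (0.0026 with library size, 0.018 and 0.021 in limma) and Sesn1 (0.022, 0.024 and 0.025 likewise). With 1 library left out, log2 fold changes crossed 0 for Cdkn1a (-0.191 to 0.199), Btg2 (-0.084 to 0.101), Ccng1 (-0.087 to 0.0038), Gtse1 (-0.083 to 0.195), Ckap2 (-0.013 to 0.101), Plk3 (-0.05 to 0.361), Tob1 (-0.063 to 0.058), Bbc3 (-0.127 to 0.043), Aen (-0.118 to 0.379), Ei24 (-0.027 to 0.103), Trp53inp1 (-0.274 to 0.476), Xpc (-0.014 to 0.131), Ercc5 (-0.162 to 0.119), Sesn1 (-0.176 to 0.182), Dram1 (-0.355 to 0.123) and Dcxr (-0.181 to 0.336). A lone library is then assumed to vary like the other group. Leaving out 1 library also leaves the siRNA groups unbalanced for batch, so a difference between batches enters these values. Gtse1, Plk3, Aen, Trp53inp1 and Sesn1 differed between batches, while the other genes named as crossing 0 did not pass for batch. Plk3 was higher after Lkb1 siRNA within each batch, by 0.15 and 0.16 on the log2 scale. The part of batch in these shifts was not tested. Depth limits Eda2r (9 or 10 counts a library, not tested), and Perp, Dram1 and Dcxr had libraries under 100 counts.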
